A study of Oryza sativa and Arabidopsis thaliana with 28 samples.

Results

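Total mRNA of rice seedlings carrying osnat10-1, called osnat10 here, was compared with that of the wild type Kitaake, called WT. Members of the comparison were the genes of the authors' deposited rice translation table with a mean of at least 1 RPKM (reads scaled to gene length and library size) over the 4 mRNA libraries. The table lists only genes that the authors called ac4C-modified, and 3648 of its 3695 genes were members. The gene just inside the threshold had 0.945 and 1.05 RPKM in osnat10, against 0.801 and 1.24 RPKM in WT, a mean of 1.01 RPKM. The gene just outside had 0.551 and 0.901 RPKM in osnat10, against 1.16 and 1.38 RPKM in WT, a mean of 0.999 RPKM.

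NAT10-type enzymes are RNA cytidine acetyltransferases that place N4-acetylcytidine (ac4C) on ribosomal RNA and, with a partner protein, on transfer RNA. The mark has also been reported in messenger RNA, where work in human cells linked it to mRNA stability and translation. The osnat10-1 line takes its name from the rice gene of this family. Kitaake is an early-flowering japonica cultivar that is widely used for rice mutants.

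Of 28 samples, which cover Arabidopsis and rice, the comparison used 2 osnat10 and 2 WT libraries of total mRNA. The matching RNC-mRNA libraries, 2 osnat10 and 2 WT, hold messages pelleted with ribosome-nascent chain complexes through sucrose, and are used below only beside the mRNA result. The labels call all of these samples seedlings and give for them no age and no treatment that differs between genotypes. The kind of mutation in osnat10-1, the number of lines and the cultivar in which the line was made are not given in the sources used here, and the growth protocol names Nipponbare as the rice cultivar. The labels number the replicates without saying that they came from separate plants or cultures, so p-values measure only the spread between these libraries, which may be technical. Kitaake columns in the table carry no replicate number and are called first listed and later listed. Whole reads could be recovered from the RPKM of 3692 genes, and reads on the table's genes came to 7314934 and 8627467 in osnat10 and to 8662341 and 8154791 in WT. They made up 20.58% and 22.13% of the inferred library totals in osnat10, and 23.23% and 22.56% in WT. The 3645 members with recovered reads had a median of 986 and 1192 reads in osnat10 and of 1085 and 1158 reads in WT.

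None of the 3695 gene IDs matched the reference name table (0 matches), and the table itself pairs no nuclear ID with a name. Lists of pathways and of cell type markers could therefore not be applied, and the transcript of the targeted gene could not be looked up by name. The seedling label was not checked against markers, and the genotype labels were not checked against the targeted gene. Nuclear genes are given below by ID or by position on IRGSP-1.0, the rice build in the submitters' processing notes. Only 6 organelle genes carry a symbol in their ID.

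Libraries of 1 genotype were not equally alike. On the log2(RPKM + 1) scale, the SD over genes of the difference between osnat10 replicates 1 and 2 was 0.28, against 0.43 between the first and later listed WT libraries. Between genotypes, osnat10 replicate 1 and replicate 2 differed from the later listed WT library with SDs of 0.38 and 0.40. The same SDs against the first listed WT library were 0.56 and 0.63. The first listed WT library thus stood farther from the other 3, and the WT libraries differed from each other about as much as the later listed one differed from osnat10. The counts of called genes, and the calls that were lost when a library was left out, are given with and without it.

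Genes that differed between the genotypes were mainly lower in osnat10. By limma on log2(RPKM + 1) over the 8 rice libraries, 44 genes were lower in osnat10 (1.21% of genes tested) and 4 were higher (0.11%) at a Benjamini-Hochberg adjusted p under 0.05. Both directions together made up 48 genes (1.32%). An unadjusted p under 0.05 was reached by 364 genes (9.98%). The median log2 change over all members was -0.07, with 5th and 95th percentiles of -0.75 and 0.48. Below 0 were 2083 genes, and 1565 were above. This balance depends on how libraries are scaled, and with libraries centred on their medians the median change was 0.01. Fewer cells of a type and less of an RNA per cell cannot be told apart in bulk seedlings.

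These counts moved with single libraries. Without the first listed WT library, limma called 13 genes lower and 1 higher in osnat10, and without the later listed one 68 lower and 35 higher. Without osnat10 replicate 1 it called 12 lower and 1 higher, and without replicate 2 it called 16 lower and 0 higher, with 187 genes at an unadjusted p under 0.05. In each of these fits the lone library of a genotype was assumed to vary like the other groups. All 44 genes stayed below 0 and all 4 above 0 in every one of the 15 alternatives tried, but 12 of the 44 and 0 of the 4 were called in every one. The genotypes overlapped in none of these 44 and 4 genes. Their sign was thus fixed in advance when 1 library was left out, and under another pseudocount, filter or limma fit. An exact 2-sided permutation test of 2 against 2 libraries cannot go below a p of 0.333, so no single gene could be tested that way.

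**Figure D1:**
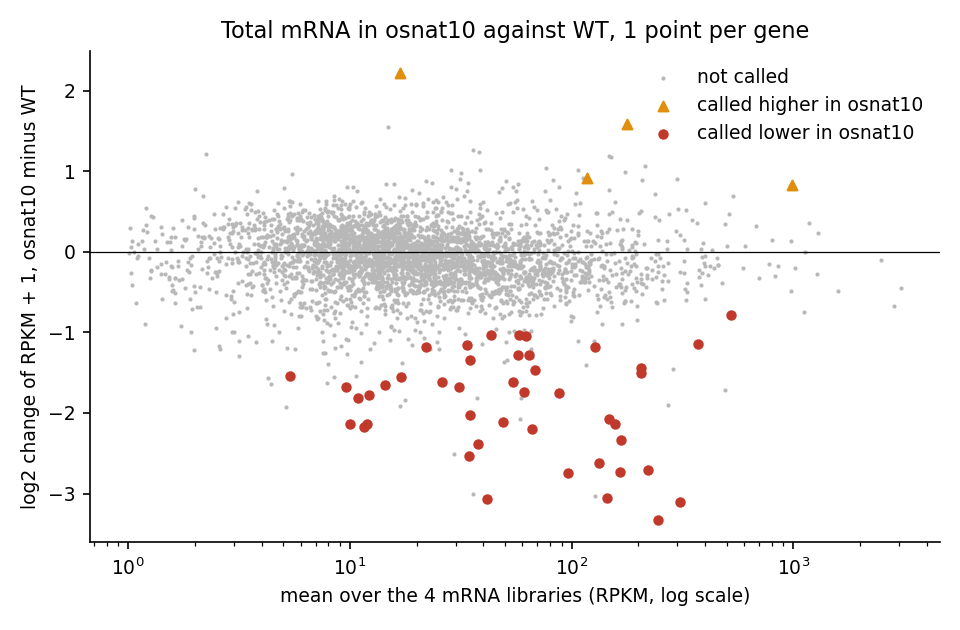
Log2 change of RPKM + 1, osnat10 minus WT, against the mean level over the 4 mRNA libraries (RPKM, log scale), with 1 point per gene for 3648 genes. The 44 genes called lower (circles) lie between log2 changes of -3.33 and -0.78, and the 4 called higher (triangles) between 0.83 and 2.22.

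Both osnat10 libraries lay below both WT libraries for 1282 genes (35.1%) and above both for 496 genes (13.6%). Of those without overlap, 101 had a log2 change of -1 or less, a fall of at least 2-fold in RPKM + 1, and 12 had a log2 change of 1 or more. At a log2 change of -2 or less, which is 4-fold, there were 23 genes, and at 2 or more there was 1. Large differences without overlap were thus more frequent in the lower direction at both sizes.

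The largest fall in osnat10 was that of Os02g0616100, on the plus strand of chromosome 2 from 24372806 to 24374439. It had 38.6 and 42.5 RPKM in osnat10, against 624 and 280 RPKM in WT. The osnat10 libraries were close to each other, while the WT libraries differed and both lay far above them. The means were 40.6 ± 2.75 RPKM in osnat10 and 452 ± 243 RPKM in WT (SD, n = 2 each). By limma the log2 change was -3.33 (SE 0.35, adjusted p = 0.00225). It was -2.76 without the first listed WT library and -3.91 without the later listed one.

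Os08g0460000, on the minus strand of chromosome 8 from 22558107 to 22559044, fell by nearly as much. It had 58.7 and 65.9 RPKM in osnat10, against 676 and 437 RPKM in WT, with no overlap between the genotypes. Its log2 change by limma was -3.11 (SE 0.24, adjusted p = 0.000766). Both genes were called lower in every alternative setting, including each omission of 1 library. Their recovered lengths, 1634 and 938 bases, equal their annotated spans, as in a gene without introns.

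A stretch of 135 kb on chromosome 10, from 2897688 to 3032661, held 5 members, and all 5 were lower in osnat10. It was chosen after its values were seen, and the table lists only ac4C-called genes, so other genes in it were not analysed here. The gene farthest left, from 2897688 to 2899059 on the minus strand, had 5.88 and 10.1 RPKM in osnat10, against 94.8 and 55 RPKM in WT. It had the fewest reads of the 5, 226 and 427 in osnat10. By limma its log2 change was -3.07 (SE 0.45, adjusted p = 0.0104), with an adjusted p of 0.171 without the first listed WT library and 0.132 without osnat10 replicate 1.

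The other 4 genes of the stretch were called lower in every setting. A gene from 3012860 to 3013949 had 49.8 and 63.7 RPKM in osnat10, against 474 and 297 RPKM in WT, a log2 change of -2.71 (SE 0.27). Its neighbour from 3016889 to 3018047 had 36.7 and 46.7 RPKM in osnat10, against 360 and 218 RPKM in WT, a change of -2.73 (SE 0.26). In all 5 genes osnat10 replicate 1 was the lowest library and the first listed WT library the highest. Next to them, the gene from 3020705 to 3022087 had 31.3 and 40.6 RPKM in osnat10, against 274 and 185 RPKM in WT, a change of -2.62 (SE 0.27). The last gene, from 3031619 to 3032661, had 47.2 and 59.6 RPKM in osnat10, against 342 and 217 RPKM in WT, a change of -2.34 (SE 0.27). By limma the adjusted p of these 4 genes lay between 0.0015 and 0.00241. Whether neighbouring genes share reads through similar sequences was not tested.

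**Figure D2:**
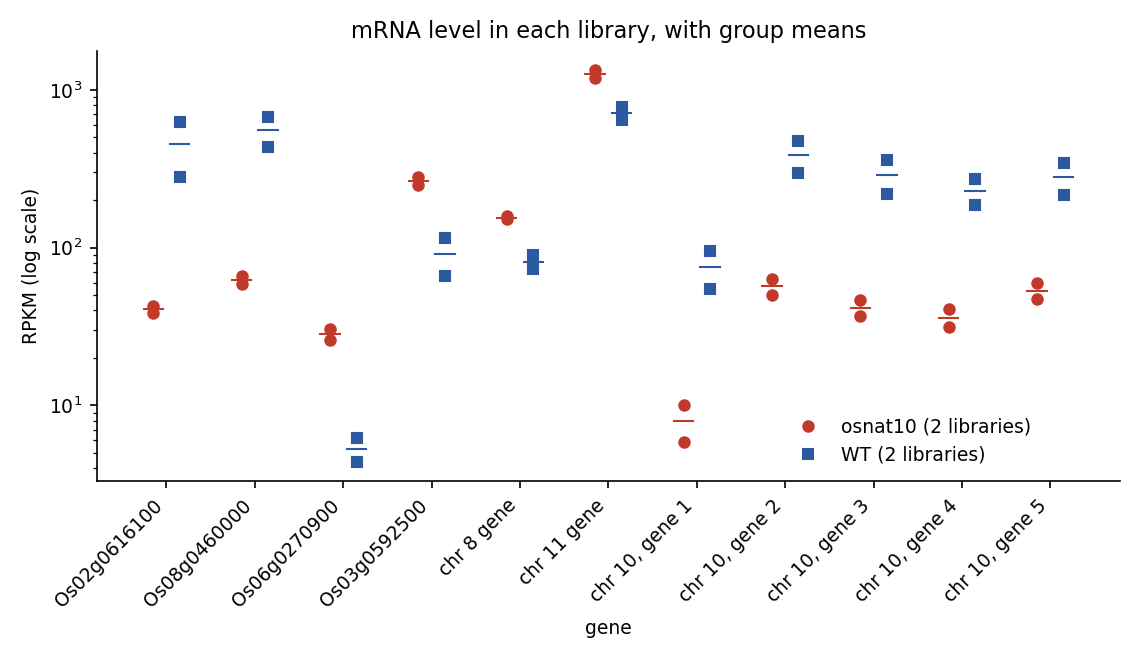
RPKM (log scale) of 11 genes in each mRNA library, with osnat10 as circles on the left of each gene, WT as squares on the right, and bars at the group means. The 5 genes of the chromosome 10 stretch lay between 5.88 and 63.7 RPKM in osnat10 and between 55 and 474 RPKM in WT, and no gene shown had overlapping genotypes.

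Lower genes lay near each other on chromosomes 11 and 12 too. Of the 44, 9 had another within 150 kb: the 5 of the chromosome 10 stretch and 2 each on chromosomes 11 and 12. The share of such neighbours among all members was not computed, so the count of 9 stands without a background share. The 150 kb window was not among the planned settings. It is wider than the 135 kb stretch, which was chosen after its values were seen. Among the 44 lower and 4 higher genes, 1 lower gene overlapped another gene of the table. On chromosome 11, a gene from 684777 to 685551 had 49.2 and 62.6 RPKM in osnat10, against 214 and 265 RPKM in WT, and by limma a log2 change of -2.08 (SE 0.27, adjusted p = 0.0052). A second gene, from 693326 to 694254, had 252 and 207 RPKM in osnat10, against 592 and 433 RPKM in WT, and a change of -1.14 (SE 0.18, limma adjusted p = 0.0165). The genotypes overlapped in neither gene. The first lost its call without the first listed WT library (adjusted p = 0.0541) or without osnat10 replicate 1 (0.0951), and the second without either of these or osnat10 replicate 2 (0.0793 to 0.271) and with libraries centred on their medians (0.0624). The second also lost it without the trend of limma's spread on level (0.0876), with length adjustment (0.0729) and by edgeR with TMM (0.0929).

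A stretch of 10.5 kb on chromosome 12 held 4 members, of which 2 were called lower. A gene from 727802 to 728559 had 48.7 and 66.3 RPKM in osnat10, against 229 and 280 RPKM in WT, with a limma log2 change of -2.14 (SE 0.31, adjusted p = 0.0104). Its mRNA values and recovered length (668 bases) were close to those of the first gene of the chromosome 11 pair (685 bases). Whether these genes share reads through similar sequences was not tested, so they may not be separate observations. A second gene, on the minus strand from 732978 to 733800, had 82.0 and 72.4 RPKM in osnat10, against 197 and 157 RPKM in WT, a change of -1.18 (SE 0.21, limma adjusted p = 0.0354). It overlaps a plus-strand gene from 733276 to 733623 with 28.2 and 28.8 RPKM in osnat10, against 80.3 and 67.3 RPKM in WT, which was not called (-1.34, SE 0.57, limma adjusted p = 0.479). Whether reads were counted by strand is not given in the sources used here, so the reads of these overlapping genes cannot be told apart. Without the first listed WT library, osnat10 replicate 1 or osnat10 replicate 2, neither of the called pair kept an adjusted p under 0.05 (0.0525 to 0.139 for the first gene and 0.271 to 0.429 for the second). The second gene also lost the call with centred libraries (0.0657), quantile normalization (0.0579), no trend (0.0844), length adjustment (0.0858) and edgeR with totals (0.0606) or TMM (0.107). The last member of the stretch, from 737314 to 738254, had 147 and 127 RPKM in osnat10, against 188 and 135 RPKM in WT. Its genotypes overlapped, and it was not called (-0.22, SE 0.22, limma adjusted p = 0.86).

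The remaining 33 lower genes had log2 changes between -3.05 and -0.78 and limma adjusted p between 0.000766 and 0.0452. Their means lay between 2.26 and 382 RPKM in osnat10 and between 8.44 and 661 RPKM in WT. Over all 44 the median log2 change was -1.75. The fewest reads behind any of the 44 in 1 library were 133. Among them, 36 had more RPKM in the first than in the later listed WT library, against 40.9% of all members. Within osnat10, 30 of the 44 were lower in replicate 1 than in replicate 2. Without the first listed WT library their median change was -1.62 and the one nearest 0 was -0.66. Without the later listed library these were -1.87 and -0.91.

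The lower genes were spread over 11 of the 12 chromosomes. Chromosomes 10 and 11 held 6 of 179 members (3.35%) and 5 of 139 members (3.6%), while chromosome 3 held 1 of 559 members (0.179%) and chromosome 9 held 0 of 178. The 135 kb stretch described above made up 5 of the 6 on chromosome 10, and the pair described above 2 of the 5 on chromosome 11. On the plus strand lay 54.5% of the lower genes and 51.6% of all members.

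The 4 genes higher in osnat10 lay on chromosomes 3, 6, 8 and 11. Os06g0270900, on the plus strand of chromosome 6 from 9091026 to 9096474, had 26 and 30.4 RPKM in osnat10, against 4.39 and 6.22 RPKM in WT. Every osnat10 library lay well above both WT libraries. By limma its log2 change was 2.22 (SE 0.25, adjusted p = 0.00241), and without osnat10 replicate 2 the adjusted p was 0.0526. Os03g0592500, on the plus strand of chromosome 3 from 22000043 to 22001240, had 250 and 282 RPKM in osnat10, against 66.4 and 115 RPKM in WT. The log2 change of this gene was 1.59 (SE 0.25, limma adjusted p = 0.0165), and its adjusted p was 0.0793, 0.132 and 0.199 without the first listed WT library, osnat10 replicate 1 and osnat10 replicate 2, and 0.0596 without the trend.

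The other two higher genes changed by less than 2-fold. A gene on chromosome 8 from 21171278 to 21172654 had 151 and 158 RPKM in osnat10, against 73.0 and 89.2 RPKM in WT, and a gene on chromosome 11 from 28932977 to 28936031 had 1190 and 1330 RPKM in osnat10, against 641 and 781 RPKM in WT. The genotypes did not overlap in either gene. Their log2 changes were 0.92 (SE 0.18) and 0.83 (SE 0.16), each with a limma adjusted p of 0.0444. Both lost the call without the first listed WT library (adjusted p = 0.308 and 0.142) or without either osnat10 library (0.296 to 0.537), and also without the trend (0.157 and 0.221), at a pseudocount of 0.1 (0.0538 and 0.0546) and by edgeR with totals (0.0741 and 0.0558). The chromosome 11 gene lost it as well under quantile normalization (0.0567) and in the fit on the 4 mRNA libraries alone (0.0922).

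Lower genes were among the more abundant members. Their mean level over the 4 libraries had a median of 57.6 RPKM, with a range from 5.35 to 522 RPKM, against a median of 17.8 RPKM for all members. At least 10 RPKM was reached by 42 of the 44, against 72.1% of all members, and at least 100 RPKM by 14, against 8.47% of all members. In 5 equal classes of the members by level, from low to high, 1, 6, 3, 9 and 25 genes were called lower. The log2(RPKM + 1) scale understates the change of low genes, so a call depends on level as well as on change. The median log2 change in these 5 classes was 0.02, -0.01, -0.03, -0.11 and -0.18. Without the first listed WT library these medians were -0.11, -0.10, -0.09, -0.10 and -0.13, and without the later listed one 0.10, 0.05, 0.00, -0.10 and -0.22. The fall of the median with level was thus far smaller without the first listed WT library.

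None of the 5 most abundant members was called, though the highest of the 5 classes by level held 25 lower and 3 higher genes. The gene with the highest mean, on chromosome 2 from 24973448 to 24977287, had 2380 and 2760 RPKM in osnat10, against 4200 and 2900 RPKM in WT, with a log2 change of -0.45 (limma adjusted p = 0.468). The next, on chromosome 3 from 26460057 to 26461156, had 2200 and 2160 RPKM in osnat10, against 3860 and 3130 RPKM in WT, with a log2 change of -0.67 (limma adjusted p = 0.0881). The other 3 of the top 5 had log2 changes of -0.10, -0.49 and 0.24.

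Change in osnat10 differed by gene length. Members were put into 10 equal classes by length. In the shortest class, 246 to 787 bases by the recovered length, the median log2 change was -0.30, and in the longest class, 3091 to 7611 bases, it was 0.13. The medians of the classes between them climbed at each step, and Spearman's rho between length and change was 0.36 across 3645 genes, which share the same 4 libraries. This rho was 0.43 and 0.25 without osnat10 replicate 1 and replicate 2, and 0.32 and 0.33 without the first and the later listed WT library. From the shortest to the longest class, 10, 9, 7, 7, 4, 6, 1, 0, 0 and 0 genes were called lower. The 44 lower genes had a median length of 1038 bases (412 to 1949), against 1598 bases for all members, and 13 of them (29.5%) had a length equal to their span, against 14.0% of all members. Lengths of the 4 higher genes lay between 1109 and 2142 bases.

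Libraries of 1 genotype also differed by length. In the shortest class, the median log2 difference of osnat10 replicate 1 minus replicate 2 was -0.01, and that of the first minus the later listed WT library was 0.10. In the longest class these were -0.29 and -0.20. For osnat10 replicate 1 minus the later listed WT library, the medians were -0.24 in the shortest and -0.10 in the longest class, and for replicate 2 minus that library they were -0.21 and 0.19. Against the first listed WT library, the medians were -0.39 and 0.07 for osnat10 replicate 1 and -0.35 and 0.36 for replicate 2, a wider gap between the length classes. The part of these differences between libraries in the genotype result was not tested. With each library's values adjusted for length, an alternative chosen after seeing the data, limma called 29 genes lower, all among the 44, and 5 higher.

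**Figure D3:**
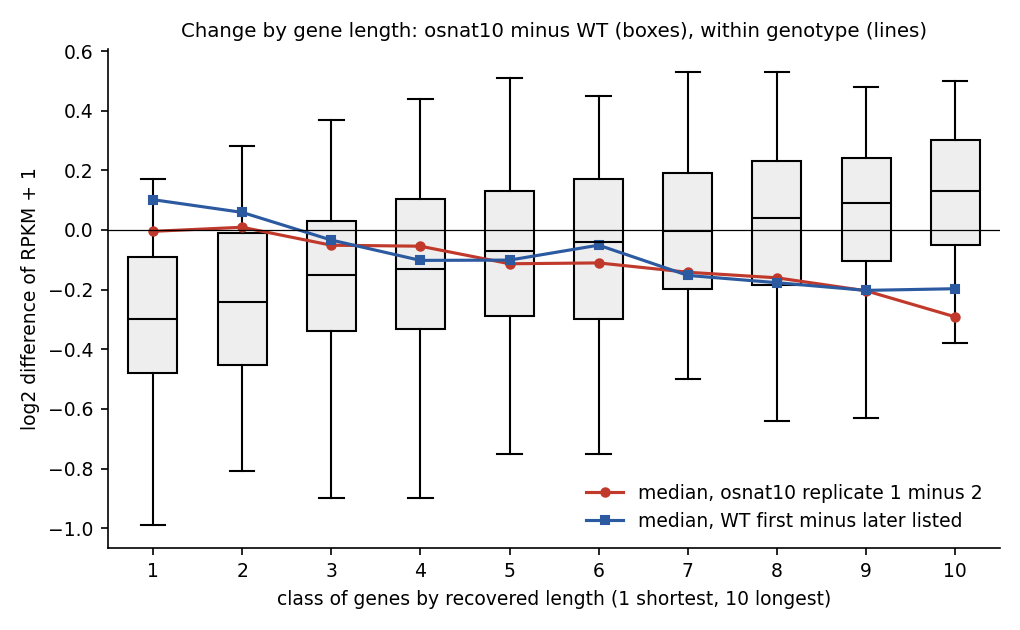
Log2 change, osnat10 minus WT, in 10 equal classes of 3645 members by recovered length (boxes with median and quartiles, whiskers at the 5th and 95th percentiles), with the median differences between the libraries of each genotype as lines. Box medians climb from -0.30 in the shortest to 0.13 in the longest class, while the lines end at -0.29 for the osnat10 libraries and -0.20 for the WT libraries in the longest class.

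The 4 RNC-mRNA libraries gave a second readout of the genotypes in other libraries, and the labels do not say whether they came from the same plants. There limma called 148 genes lower in osnat10 (4.06%) and 21 higher (0.576%), with a median log2 change of -0.17 over the members. All 44 genes that were lower in mRNA had an RNC change below 0, against 64.1% of all members, with a median of -1.68 and a range from -3.59 to -0.26. Of the 44, 33 (75.0%) were also called lower in RNC-mRNA, which was 22.3% of the 148. The 11 not called there had RNC changes between -1.15 and -0.26. Calls in mRNA and in RNC-mRNA came from the same limma fit, with a shared spread per gene. The overlap of the calls is therefore not that of independent tests.

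Os02g0616100 had 27.8 and 42.7 RPKM in the osnat10 RNC libraries, against 310 and 233 RPKM in WT, a limma log2 change of -2.92 (adjusted p = 0.00376). Os08g0460000 had 55.5 and 62.9 RPKM in osnat10 RNC libraries, against 368 and 267 RPKM in WT, a limma log2 change of -2.39 (adjusted p = 0.00199). The 5 genes of the chromosome 10 stretch were all called lower there, with log2 changes between -2.60 and -2.01. By contrast, the second gene of the chromosome 11 pair had 430 and 418 RPKM in osnat10 RNC libraries, against 515 and 499 RPKM in WT, and was not called (-0.26, limma adjusted p = 0.443).

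Each of the 4 higher genes had an RNC change above 0, between 0.37 and 1.97, and 3 were called higher. Os06g0270900 had 48.1 and 38.5 RPKM in osnat10 RNC libraries, against 16.4 and 15.5 RPKM in WT, and Os03g0592500 had 233 and 220 RPKM in osnat10, against 65.1 and 50.3 RPKM in WT. The exception was the chromosome 11 gene, with 1010 and 1200 RPKM in osnat10 RNC libraries, against 843 and 859 RPKM in WT (0.37, limma adjusted p = 0.21). In the reverse direction, 143 of the 148 genes lower in RNC-mRNA had an mRNA change below 0, with a median of -0.60. Across the 3648 members, the changes in mRNA and RNC-mRNA had a Pearson r of 0.45 and a Spearman rho of 0.39, as a description across genes that are not independent replicates.

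**Figure D4:**
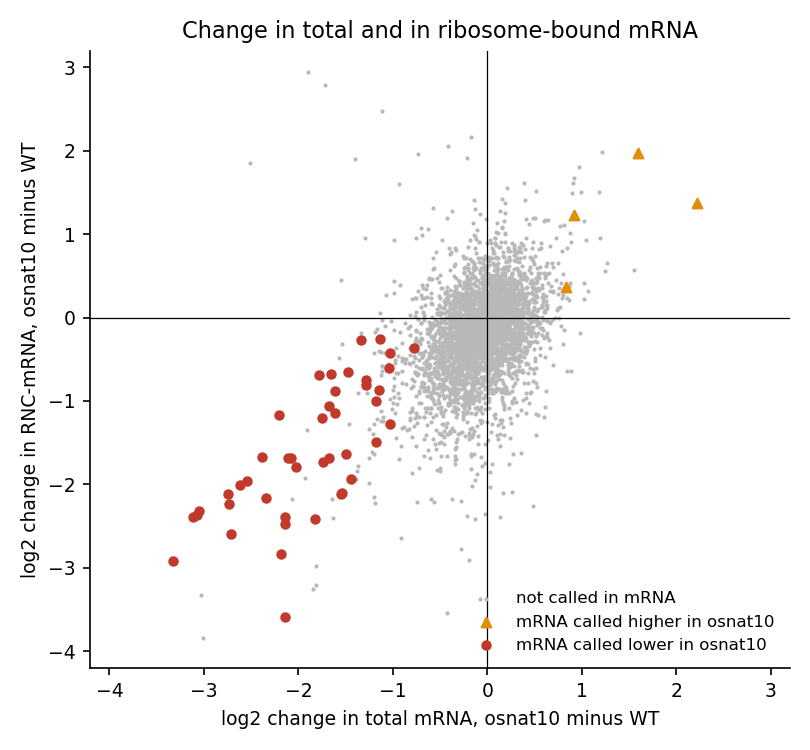
Log2 change in RNC-mRNA against log2 change in total mRNA, both osnat10 minus WT on the RPKM + 1 scale, with 1 point per gene. All 44 genes called lower in mRNA (circles) lie below 0 on both axes, and all 4 called higher (triangles) lie above 0 on both.

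Of the 6 organelle genes, none was called. They encode subunits of respiratory and photosynthetic complexes: atp1 and atp6 belong to the mitochondrial ATP synthase, cox1 and cox3 to cytochrome c oxidase, and atpA and atpH to the chloroplast ATP synthase. The mitochondrial atp1 had 3.42 and 4.36 RPKM in osnat10, against 4.66 and 0.994 RPKM in WT. The mitochondrial atp6 had 1.12 and 1.48 RPKM in osnat10, against 2.94 and 0.743 RPKM in WT. For both, the WT libraries lay on either side of the osnat10 libraries.

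The cytochrome c oxidase genes had the same order. Levels of cox1 were 3.12 and 5.08 RPKM in osnat10, against 5.43 and 0.702 RPKM in WT. Levels of cox3 were 3.27 and 3.04 RPKM in osnat10, against 3.28 and 1.12 RPKM in WT. The later listed WT library was the lowest of the 4 for atp1, atp6, cox1 and cox3 alike. Their log2 changes, 0.53, -0.19, 0.60 and 0.47 for atp1, atp6, cox1 and cox3, had limma adjusted p between 0.854 and 0.941, and each changed sign when 1 WT library was left out.

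Chloroplast atpA had 8.79 and 11.3 RPKM in osnat10, against 12.5 and 8.06 RPKM in WT, a log2 change of -0.01 (SE 0.56). Chloroplast atpH had 3.32 and 3.65 RPKM in osnat10, against 1.42 and 0.562 RPKM in WT, and was the only one of the 6 without overlap. It rested on 29 and 35 reads in osnat10 and 13 and 5 reads in WT, and its log2 change of 1.21 (SE 0.53) did not pass the test (limma adjusted p = 0.485).

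The summed level of the 10 members with an Ensembl non-coding RNA ID differed more between libraries of 1 genotype than between genotypes. It was 1544 and 212.9 RPKM in osnat10, against 1728 and 435.4 RPKM in WT. In osnat10 the median of replicate 2 over replicate 1 was 0.19, and in WT the later over the first listed library had a median of 0.448. The highest of them, on chromosome 1 from 33506260 to 33506791, had 746 and 24.3 RPKM in osnat10, against 990 and 205 RPKM in WT. Those on chromosome 9 varied less between libraries of 1 genotype. From 3626 to 5436 the levels were 77.0 and 59.9 RPKM in osnat10, against 55.2 and 33.5 RPKM in WT. From 35338 to 37148 they were 13.7 and 11.9 RPKM, against 10.1 and 8.17 RPKM, also without overlap. The gene from 27410 to 29220 overlapped (16.2 and 11.2 RPKM, against 12.4 and 8.75 RPKM). None of the 10 was called by limma. A mitochondrial member with no symbol, from 380118 to 383624, had 403 and 10.1 RPKM in osnat10, against 564 and 110 RPKM in WT, and was not called either (limma adjusted p = 0.853).

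**Figure D5:**
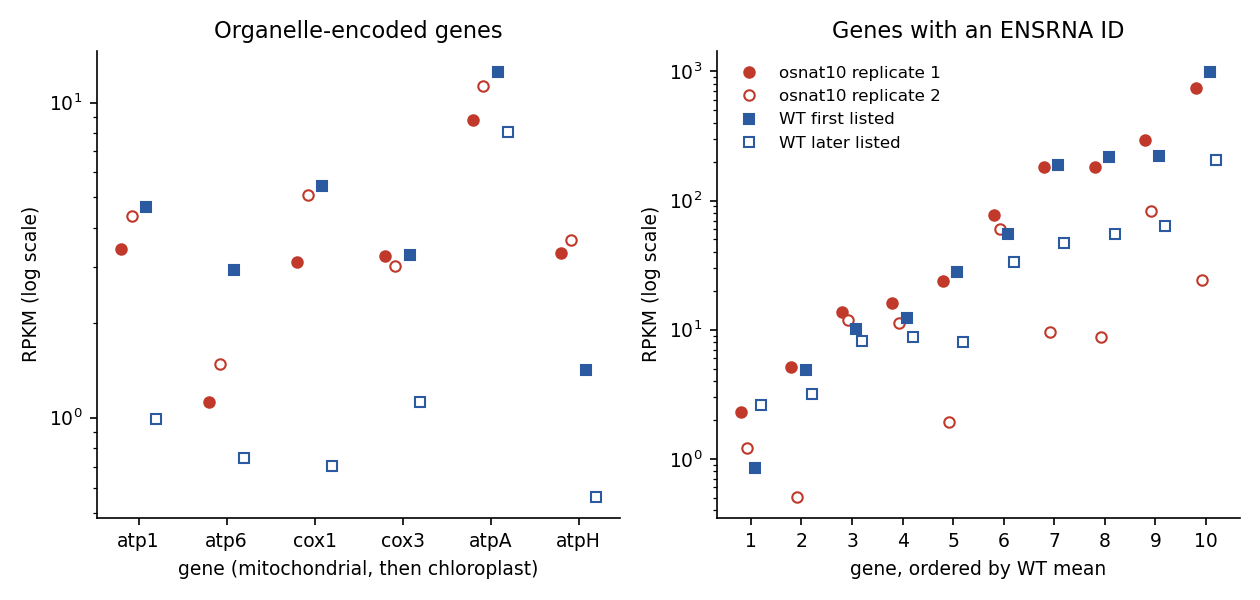
RPKM (log scale) in each mRNA library of the 6 organelle genes (left) and of 10 genes with an Ensembl non-coding RNA ID (right), with osnat10 as circles and WT as squares. The later listed WT library (open squares) is the lowest for all 6 organelle genes, and osnat10 replicate 2 (open circles) is the lowest for 5 of the 10 non-coding genes.

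The mRNA change was also set beside the ac4C-seq site list, which comes from 1 treated and 1 control library of another rice sample, so it has no replicate check. It carries no strand, so only plus-strand members were used. Sites were assigned to the 1548 of these on chromosomes 1 to 8, with at least 10 reads in both libraries at a site. Members on chromosomes 9 to 12, where the stretches described above lie, were not part of this comparison. The 15 lower genes among the 1548 had a median of 68 listed sites, against 72 for all 1548. These 15 were more abundant, with a median level of 34.9 RPKM against 17.7 RPKM. Genes with a site were put into 4 classes by number of sites. From few to many sites, 3, 5, 3 and 4 genes were called lower (0.767%, 1.32%, 0.783% and 1.04%). The median level of these 4 classes climbed with the number of sites, at 8.92, 14.1, 24.1 and 53.5 RPKM. Neither comparison was matched for level. Of 213 genes with a site at least 5 percentage points higher in C-to-T rate after the reducing treatment, 2 were called lower (0.939%), and of 1335 without one, 13 were called lower (0.974%). The median log2 changes of these classes were 0.07 and -0.09. Genes with such a site were less abundant, with a median of 12.8 RPKM against 19.1 RPKM.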

How the data were processed

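The rice table holds RPKM values that the authors made from mRNA and RNC-mRNA libraries and deposited. Per the submitters' processing notes, STAR 2.5.3a and SAMtools were used, with the build IRGSP-1.0. The program that made the RPKM values is not given in the sources used here. A gene's transcripts share their values, so 1 row per gene was kept (5602 rows, 3695 genes). For 99.92% of genes a length and library totals were found at which all 8 libraries give whole reads, within 0.02 reads beyond the rounding of the values. The smallest such length was taken, so the true length may be a multiple of it. These reads were tested with edgeR 4.0.16 as an alternative.

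Log2(RPKM + 1) was tested with limma 3.58.1 in R 4.3.3 (eBayes with a trend, 4 rice groups in 1 fit, Benjamini-Hochberg adjustment), without further scaling. Fold changes on this scale understate the change of low genes. The scripts were tested on simulated data. A permutation test of single genes was not used.

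Site values are read counts in 2 ac4C-seq libraries, as deposited by the authors, and sites needed at least 10 reads in both.

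The genes given by ID were, in each direction, the 2 called genes with the largest change, no overlap and at least 5 RPKM in a genotype. The 5 genes of highest mean level, every other gene called higher and every organelle gene with a symbol were also given, and stretches with several called genes were chosen after their values were seen. The 25 gene lists and the marker list could not be applied for want of gene names. Members and lists were chosen with earlier results of these data known. Sequences are not reported here.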

Additional observations from a re-analysis of the deposited data

How the results depend on the processing

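The 44 lower and 4 higher calls were recomputed under 15 alternatives, 12 planned and 3 added after seeing the data (edgeR on recovered reads with totals or TMM, and length adjustment). Lower genes fell to 30 with libraries centred on their medians, 30 by edgeR with library totals and 31 without the trend. At other pseudocounts and filters and under quantile normalization there were between 39 and 49. The count of lower genes moved to 110 in a fit on the 4 mRNA libraries alone, 27 by edgeR with TMM and 29 with length adjustment, and lay between 12 and 68 when 1 library was left out. The count of higher genes moved to 2 at a pseudocount of 0.1, 10 under quantile normalization, 7 with the mRNA libraries alone, 1 without the trend and 2 by edgeR with library totals, and lay between 0 and 35 when 1 library was left out (by limma, 187 genes had an unadjusted p under 0.05 at the count of 0). Where 1 library was left out, 12 of the 44 were called in all 4 fits, and 26 of the 44 in all 11 other alternatives. The median change of -0.07 became 0.01 with libraries centred on their medians, 0.04 under quantile normalization, 0.02 with TMM and 0.04 with length adjustment. Quantile normalization shifted it by 0.11, and the 44 and 4 genes kept their direction under each of these. It lay between -0.12 and -0.02 with 1 library left out. Among organelle genes, log2 changes reversed with a WT library left out, and lay between -0.22 and 1.29 for atp1, -0.78 and 0.40 for atp6, -0.30 and 0.28 for atpA, -0.36 and 1.56 for cox1, and -0.04 and 0.97 for cox3 over the fits that leave out 1 library. With length adjustment atp6 was at 0.03 and atpA at 0.27, and atpA was also above 0 with centred libraries (0.06), quantile normalization (0.07), TMM (0.05) and without osnat10 replicate 1 (0.15). The cause of these moves was not tested. Fits without 1 library have fewer samples, and the counts also differed with which library was left out.

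No paired analysis was possible because the WT columns carry no replicate number. The gene list alternatives were not run. The lower genes had at least 133 recovered reads in each library, and the number of libraries limits the precision of the spread.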
